A study of Saccharomyces cerevisiae with 6 samples.

Results

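The messenger RNAs of the nonsense-mediated decay (NMD) machinery and of the Ski complex were followed in budding yeast (Saccharomyces cerevisiae) strains built to deplete a decapping enzyme or deadenylases. The genes were chosen by name and function: NAM7, NMD2, UPF3, EBS1 and NMD4 for NMD, and SKI2, SKI3, SKI7 and SKI8 for the Ski pathway. Of these 9 genes, 8 have a row in the table of 4909 genes. SKI7 was not analysed here. The 6 direct RNA libraries came from a Ccr4/Pop2 degron strain, a Dcp2 degron strain and the wild type BY4741, with 2 libraries each. All cultures were in YPD at 30 °C (OD600 of 0.4) and were given IAA, an auxin, at 100 µM with 1 µM estradiol for 1 h.

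The Ccr4/Pop2 degron strain, LMA5601, carried AID-3Flag-CCR4 and an AID tag with KanMX6 at CAF1 (YNR052c), the other name of POP2. The Dcp2 degron strain, LMA5574, carried polyG-3Flag-AID with kanMX at DCP2 (YNL118c). Both degron strains are labelled Mat a, as is the wild type. They are further labelled as BY4741 with TAO3_E1493Q, an inserted A at -308 of RME1 (YGR044c) and a trp1-1::TRP1 cassette holding the Z3EV transcription factor under the URA3 promoter and a Z3EV-driven TIR. TIR is the receptor through which auxin sends an AID-tagged protein to destruction. The wild type, BY4741, has the genotype leu2Δ0, his3Δ1, ura3Δ0, met15Δ0, Mat a, and received the same additions without a cassette or a tag listed. Each group is a single strain, so the depletion, the tag and the background alleles cannot be told apart. The labels do not say whether replicates were separate cultures, and p-values measure the spread between these libraries, which may be technical.

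NMD removes messenger RNAs on which translation stops too early. NAM7 encodes Upf1, the RNA helicase at its centre, NMD2 encodes Upf2 and UPF3 the third core factor, while Ebs1 and Nmd4 bind Upf1. In yeast, RNAs targeted by NMD are mainly decapped by Dcp2 and then degraded from the 5′ end. The Ski complex of the helicase Ski2, the scaffold Ski3 and the WD-repeat protein Ski8 works from the other end: it feeds RNA into the cytoplasmic exosome, to which Ski7 links it. Both pathways meet the steps targeted here, since NMD leads to decapping and the exosome takes up RNA that has lost its tail.

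NMD2 is the member whose row carries the suffix "exon" in the table, and RefSeq R64 (sacCer3, the build named in the submitters' processing notes) gives it an intron at chrVIII:255638-255750 on the minus strand, after the first 6 coding bases. The 113 bases are shown because they are left out of the spliced RNA. What the suffix means for the counting of reads is not given in the sources used here. Capitals mark the letters GTATGT at the 5′ splice site, TACTAAC of the branch site and the closing AG.
NMD2 intron: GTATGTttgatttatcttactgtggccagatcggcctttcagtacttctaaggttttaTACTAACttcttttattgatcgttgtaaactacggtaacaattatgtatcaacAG
Both strands were searched, with matches only on the strand that reads as the RNA does. Of 281 nuclear introns between coding parts in the same annotation, 73% open with GTATGT and 82.6% hold TACTAAC. In NMD2 the branch site letters begin at base 59 and leave 48 bases to the 3′ end of the intron.

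Reads of this assay start at the tail, so the first coding letters they meet are those at the stop codon, the signal that NMD inspects. The last 30 coding bases are shown for the 4 genes whose levels differed most between the degrons in the fits below, with the stop codon in capitals.
NMD4, chrXII:852495-852524, minus strand: agaggtacaggcgaattgtggtccccaTAA
EBS1, chrIV:864679-864708, plus strand: aggggaaacagtcggaataatatgtttTAA
SKI3, chrXVI:916933-916962, plus strand: gcagtgaaggcgctaaacgaatgtttcTAA
SKI2, chrXII:915156-915185, minus strand: attgttttcgccgcaagtttgtatttaTAG
The whole coding sequences run over 657 bases for NMD4 (YLR363C), 2655 for EBS1 (YDR206W), 4299 for SKI3 (YPR189W) and 3864 for SKI2 (YLR398C). NAM7 (YMR080C) has 2916 coding bases, NMD2 (YHR077C) 3270, UPF3 (YGR072W) 1164 and SKI8 (YGL213C) 1194. The annotation lists no gene that overlaps a member. Beyond the stop codon of SKI3, RPC82 lies 114 bases away on the opposite strand.

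Total counts ranged from 1067250 to 8450296 per library, and the members together held 438 to 3332 of them. The highest total belongs to Ccr4/Pop2 degron replicate 1, in which every count is a multiple of 4. Divided by 4 its total is 2112574, and its counts may not be numbers of separate reads. Its read numbers are given below as deposited. Divided by 4, the 124 of NMD2 would be 31, the 388 of SKI2 97 and the 340 of NMD4 85. Libraries of equal replicate number moved together in RNA level (correlations of 0.794 to 0.823 across genes), so fits with the replicate number as a term, called the replicate block below, are given beside fits without it. The labels do not say that equal numbers mark a shared batch, and every call of a member for RNA level depends on that term. The replicate shift followed coding length, with a Spearman coefficient of -0.538 over 4907 genes. DCP2 stood at 22.8 and 22.7 CPM (read counts scaled to library size with TMM factors) in Dcp2 degron cells, against 50.9 and 54.7 CPM in wild-type cells. POP2 stood at 43.7 and 30.8 CPM in Ccr4/Pop2 degron cells, against 70.5 and 49.9 CPM in wild-type cells, and CCR4 was not analysed here. A degron acts on the protein, so this does not measure the depletion. CPM are shares of a library, so a change in one RNA and an opposite change in the sum of the others cannot be told apart.

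**Figure D1:**
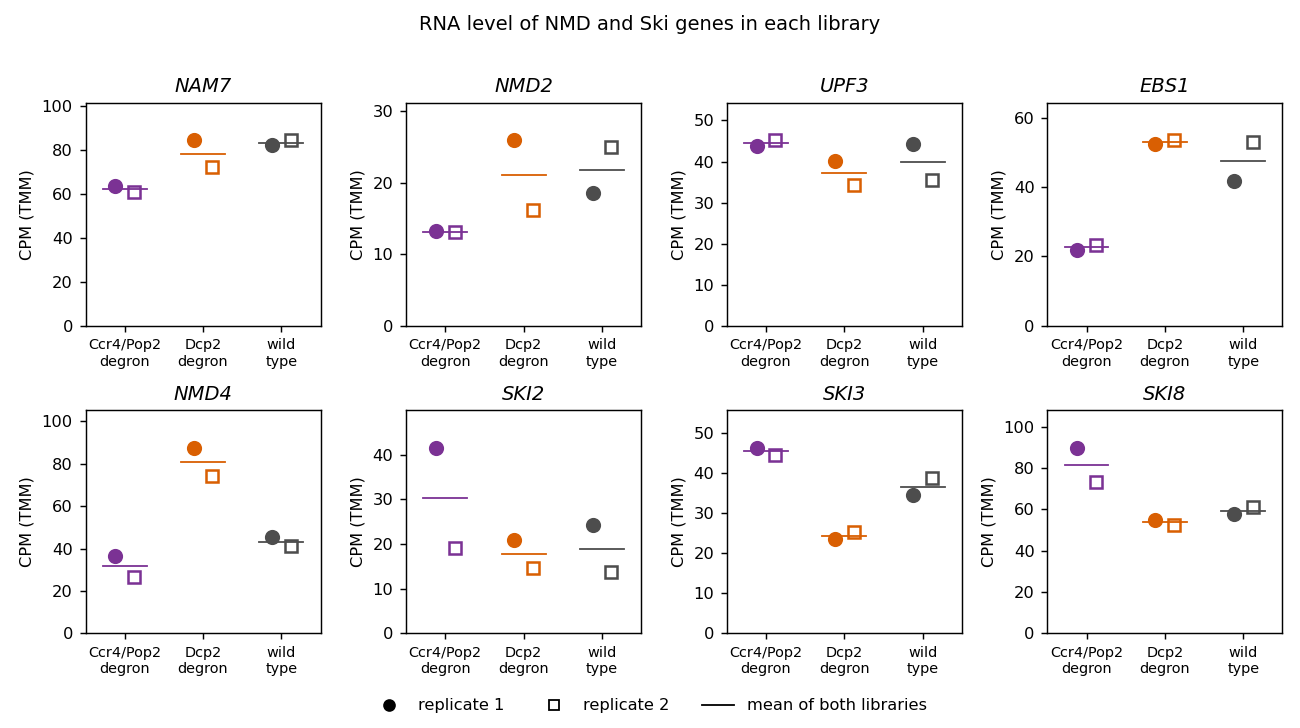
RNA level in CPM (TMM scaling, linear axis from 0) of the 8 genes in each library, with filled circles for replicate 1, open squares for replicate 2 and a line at the mean of each group. NMD4 is highest in both Dcp2 degron libraries, at 87.7 and 74.3 CPM, and EBS1 lowest in both Ccr4/Pop2 degron libraries, at 21.9 and 23.3 CPM.

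Per kilobase of coding length, levels in wild-type cells ran from 65.7 ± 4.54 CPM for NMD4 to 4.90 ± 1.92 CPM for SKI2 (SD, n = 2). Between these, SKI8 had 49.8 ± 2.11, UPF3 34.2 ± 5.36, NAM7 28.6 ± 0.537, EBS1 17.9 ± 3.05, SKI3 8.50 ± 0.686 and NMD2 6.65 ± 1.39 CPM per kilobase. The libraries of neighbours in this order did not overlap, except for NMD2 and SKI2. Direct RNA reads start at the tail and need not span a gene, so a division by length may understate long genes. Without that division the order differed, with NAM7 highest in wild-type cells at a mean of 83.4 CPM. SKI8 followed at 59.4, EBS1 at 47.4, NMD4 at 43.2, UPF3 at 39.8, SKI3 at 36.6, NMD2 at 21.7 and SKI2 at 18.9 CPM. The order per kilobase was led by SKI8 at 68.4 ± 9.86 in Ccr4/Pop2 degron cells and by NMD4 at 123 ± 14.4 CPM per kilobase in Dcp2 degron cells (SD, n = 2 each). It ended with NMD2 at 4.02 ± 0.0565 in Ccr4/Pop2 degron cells and SKI2 at 4.61 ± 1.16 CPM per kilobase in Dcp2 degron cells.

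RNAs of the accessory NMD factors Ebs1 and Nmd4 were at their lowest in Ccr4/Pop2 degron cells, and NMD4 RNA was at its highest in Dcp2 degron cells. NMD4, a Upf1 partner, had 340 and 39 reads in Ccr4/Pop2 degron cells, 142 and 147 in Dcp2 degron cells, and 88 and 51 in wild-type cells (replicates 1 and 2). These are levels of 36.4 and 26.7 CPM in Ccr4/Pop2 degron cells, 87.7 and 74.3 CPM in Dcp2 degron cells, and 45.3 and 41.1 CPM in wild-type cells. The 3 groups did not overlap. NMD4 averaged 81.0 ± 9.45 CPM in Dcp2 degron cells, against 43.2 ± 2.98 CPM in wild-type cells (SD, n = 2 each), which is 1.87-fold. The log2 change of 0.90 had a standard error (SE) of 0.288, and edgeR's quasi-likelihood test gave an adjusted p of 0.344 without and 0.000654 with the replicate block. Same-numbered libraries differed by 0.95 and 0.85. All 12 alternatives to the blocked fit kept NMD4 under an adjusted p of 0.05 in edgeR or DESeq2, at log2 changes of 0.83 to 1.43. Against the wild type, the Ccr4/Pop2 degron had an NMD4 log2 change of -0.43 (SE 0.289, edgeR adjusted p 0.82, and 0.116 with the replicate block). Directly between the degrons it was -1.34 (SE 0.287), with an edgeR adjusted p of 0.114 without and 7.61e-06 with the replicate block.

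EBS1 encodes a protein that acts in NMD and in translation inhibition, and is the paralog of the telomerase subunit gene EST1. It had 204 and 34 reads in Ccr4/Pop2 degron cells, 85 and 106 in Dcp2 degron cells, and 81 and 66 in wild-type cells. In CPM these are 21.9 and 23.3 in Ccr4/Pop2 degron cells, 52.5 and 53.6 in Dcp2 degron cells, and 41.7 and 53.1 in wild-type cells. The Ccr4/Pop2 degron libraries lay below the other 4, and the Dcp2 degron libraries overlapped the wild type. EBS1 averaged 22.6 ± 1.03 CPM in Ccr4/Pop2 degron cells and 47.4 ± 8.11 CPM in wild-type cells (SD, n = 2 each), a log2 change of -1.07 (SE 0.266). The edgeR adjusted p was 0.384 without and 0.000811 with the replicate block. Under the block all 12 alternatives kept it under 0.05, at log2 changes of -1.22 to -0.93. Between the degrons the log2 change was -1.24 (SE 0.265), with an edgeR adjusted p of 0.114 without and 5.21e-05 with the block. In Dcp2 degron cells against wild-type cells it was 0.17 (SE 0.261, edgeR adjusted p 0.82, and 0.505 with the block). Total-count scaling with the block put it at 0.69 and called it higher (edgeR adjusted p 0.00324), as it did 50.7% of all genes. The paralog EST1 had 10.7 and 7.54 CPM in Ccr4/Pop2 degron cells, 17.9 and 13.6 CPM in Dcp2 degron cells, and 10.8 and 14.5 CPM in wild-type cells, resting on 11 to 100 reads.

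With TMM scaling and all 6 libraries, edgeR called none of the core NMD genes in the 3 comparisons, with or without the replicate block; other settings under the block gave calls for NAM7 and NMD2. NAM7, the gene of Upf1, had 63.9 and 61.0 CPM in Ccr4/Pop2 degron cells, 84.6 and 72.3 in Dcp2 degron cells, and 82.3 and 84.5 in wild-type cells, from 89 to 596 reads. Both Ccr4/Pop2 degron values lay below the other 4. The Ccr4/Pop2 degron had a NAM7 log2 change of -0.42 against wild-type cells (SE 0.265), with an edgeR adjusted p of 0.799 without and 0.0584 with the replicate block. Under the block, the 12 alternatives gave -0.54 to -0.30, with adjusted p from 0.0213 to 0.325 in edgeR and DESeq2, and 4 of them were under 0.05, among them those without Dcp2 degron replicate 1 or 2, at -0.40 each. NMD2, the gene of Upf2, had 13.3 and 13.0 CPM in Ccr4/Pop2 degron cells, 25.9 and 16.2 in Dcp2 degron cells, and 18.5 and 24.96 in wild-type cells. It rested on 19 to 124 reads, and its Ccr4/Pop2 degron libraries again lay below the other 4. Its log2 change there was -0.71 (SE 0.358), with an edgeR adjusted p of 0.703 without and 0.0764 with the block. Across the 11 alternatives under the block it ran from -1.21 to -0.44, with adjusted p from 0.0454 to 0.446 in edgeR and DESeq2. Between the degrons the NMD2 log2 change was -0.67 (SE 0.355, edgeR adjusted p 0.411, and 0.0568 with the block). It was called under the block without Dcp2 degron replicate 2, wild-type replicate 1 or wild-type replicate 2, at -1.01, -0.76 and -0.76, and also with RLE size factors, at -0.71 (edgeR adjusted p 0.0406). With total-count scaling under the block, NMD2 was called lower between the degrons at -1.09 (edgeR adjusted p 0.00118) and NAM7 at -0.73 (edgeR adjusted p 0.00032), where 41.1% of all genes were called lower. The NAM7 change between the degrons was -0.33 (SE 0.265, edgeR adjusted p 0.0943 with the block) with TMM scaling, and was called at a minimum of 20 reads, at -0.41 (edgeR adjusted p 0.039 with the block). UPF3 had 43.7 and 45.2 CPM in Ccr4/Pop2 degron cells, 40.1 and 34.4 in Dcp2 degron cells, and 44.2 and 35.4 in wild-type cells. Both degrons overlapped the wild type for UPF3, whose log2 change in Ccr4/Pop2 degron cells was 0.15 (SE 0.263). The Dcp2 degron had log2 changes against wild-type cells of -0.089 for NAM7, -0.042 for NMD2 and -0.10 for UPF3, with SE of 0.265, 0.358 and 0.268. Total-count scaling with the block turned NAM7 there to 0.43 and called it higher (edgeR adjusted p 0.0339), as it did 50.7% of all genes.

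The genes of the Ski complex had their highest mean levels in Ccr4/Pop2 degron cells. SKI3, the scaffold, had 432 and 65 reads in Ccr4/Pop2 degron cells, 38 and 50 in Dcp2 degron cells, and 67 and 48 in wild-type cells. In CPM these are 46.3 and 44.6 in Ccr4/Pop2 degron cells, 23.5 and 25.3 in Dcp2 degron cells, and 34.5 and 38.6 in wild-type cells. The 3 groups did not overlap, in the reverse order of NMD4. SKI3 averaged 24.4 ± 1.28 CPM in Dcp2 degron cells and 36.6 ± 2.95 CPM in wild-type cells (SD, n = 2 each), a log2 change of -0.58 (SE 0.254). The edgeR adjusted p was 0.438 without and 0.0494 with the replicate block, just under the threshold. Leaving out Dcp2 degron replicate 1 or 2, or wild-type replicate 1 or 2, ended this blocked call, with log2 changes of -0.53, -0.61, -0.65 and -0.51. Total-count scaling with the block brought it to -0.060, and it was not called at a minimum of 20 reads (-0.49, edgeR adjusted p 0.0882) or by DESeq2 (-0.58, adjusted p 0.197), both with the block. The Ccr4/Pop2 degron had a SKI3 log2 change of 0.32 against wild-type cells (SE 0.244, edgeR adjusted p 0.859, and 0.192 with the block). Between the degrons it was 0.90 (SE 0.248), with an edgeR adjusted p of 0.159 without and 0.00103 with the block.

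SKI8, the WD-repeat subunit that also takes part in meiotic recombination, had 840 and 107 reads in Ccr4/Pop2 degron cells, 89 and 104 in Dcp2 degron cells, and 112 and 76 in wild-type cells. The levels were 90.0 and 73.3 CPM in Ccr4/Pop2 degron cells, 55.0 and 52.6 in Dcp2 degron cells, and 57.6 and 61.2 in wild-type cells. The Ccr4/Pop2 degron lay above and the Dcp2 degron below the wild type, the last by a narrow gap. SKI8 averaged 81.7 ± 11.8 CPM in Ccr4/Pop2 degron cells and 59.4 ± 2.52 CPM in wild-type cells (SD, n = 2 each), a log2 change of 0.46 (SE 0.267). Its edgeR adjusted p was 0.757 without and 0.0346 with the block. Without Ccr4/Pop2 degron replicate 1, wild-type replicate 1 or wild-type replicate 2 the blocked change was 0.30, 0.30 and 0.56 and was no longer called. SKI2, the helicase, is the member in which replicates differed most, with 388 and 28 reads in Ccr4/Pop2 degron cells, 34 and 29 in Dcp2 degron cells, and 47 and 17 in wild-type cells. The levels were 41.6 and 19.2 CPM in Ccr4/Pop2 degron cells, 21.0 and 14.7 in Dcp2 degron cells, and 24.2 and 13.7 in wild-type cells. In each group replicate 1 exceeded replicate 2, and averaged over groups the difference of replicate 2 from replicate 1 was -0.81 on the log2 scale, with a difference of -0.071 for the median gene. The groups overlapped in CPM. The log2 change in Ccr4/Pop2 degron cells was 0.71 (SE 0.473), with an edgeR adjusted p of 0.821 without and 0.0261 with the block. Leaving out Ccr4/Pop2 degron replicate 1 lowered the blocked change to 0.37, with 0.65 and 0.68 without wild-type replicate 1 and 2, and none of these was called. DESeq2 with the block called neither SKI2 nor SKI8 in this comparison (0.64 and 0.45, adjusted p 0.297 and 0.215). Between the degrons the blocked changes of SKI2 and SKI8 were 0.78 (SE 0.229) and 0.62 (SE 0.165), with edgeR adjusted p of 0.00976 and 0.00483, against 0.439 and 0.331 without the block. Without Ccr4/Pop2 degron replicate 1 both blocked calls were lost, at 0.46 and 0.44, and that of SKI2 also without Dcp2 degron replicate 1, at 0.47. Total-count scaling with the block also ended both calls, at 0.36 for SKI2 and 0.22 for SKI8 (edgeR adjusted p 0.212 and 0.307), and DESeq2 with the block ended that of SKI2 (0.70, adjusted p 0.161).

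**Figure D2:**
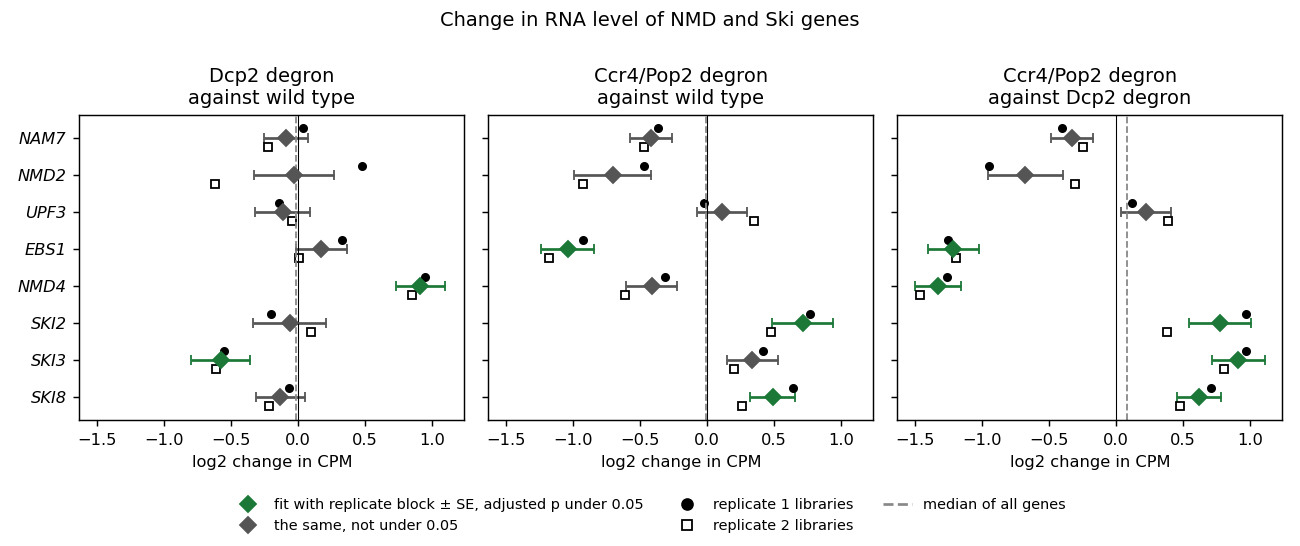
Log2 change in CPM of each gene in the 3 comparisons: diamonds are estimates of edgeR's fit with the replicate block with bars of 1 standard error, circles and squares the differences of replicate 1 and replicate 2 libraries, and the dashed line the median of all genes. Between the degrons, EBS1 and NMD4 lie at -1.21 and -1.33, and SKI2, SKI3 and SKI8 at 0.78, 0.91 and 0.62.

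Counted over the 8 genes, edgeR without the block called 0 in each comparison, where it called 0%, 0.0815% and 0% of all 4909 genes. In Dcp2 degron cells against wild-type cells, 1 member had an unadjusted p under 0.05, as did 11.8% of all genes. In Ccr4/Pop2 degron cells against wild-type cells it was 1 member (7.99% of all genes), and between the degrons 3 members (16.4% of all genes). DESeq2 without the block also called 0 members in each. With the replicate block, edgeR called NMD4 higher and SKI3 lower in Dcp2 degron cells, where 17.6% of all genes were called higher and 19.7% lower. In Ccr4/Pop2 degron cells it called SKI2 and SKI8 higher (14.2% of all genes) and EBS1 lower (12.8% of all genes). Between the degrons it called 3 members higher in Ccr4/Pop2 degron cells, all of the Ski complex (26.3% of all genes), and 2 lower, EBS1 and NMD4 (20.8% of all genes). DESeq2 with the block called 1, 1 and 4 members in these 3 comparisons, and its share of all genes called was not taken. The median log2 change of the 8 members was -0.097, -0.13 and -0.036, against -0.016, -0.0066 and 0.085 for all genes. Both comparisons with the wild type use the same wild-type libraries, and their values are therefore not independent.

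Levels were also compared library by library. In Dcp2 degron cells, 1 member stood above the 2 wild-type libraries (21.8% of all genes) and 2 stood below them (20.4% of all genes). In Ccr4/Pop2 degron cells 2 lay above (16.5% of all genes) and 4 below (15.6% of all genes). The 4 below were NAM7, NMD2, EBS1 and NMD4, and the 2 above were SKI3 and SKI8. Against the Dcp2 degron, 3 members lay above in Ccr4/Pop2 degron cells (23.4% of all genes) and 4 below (22.2% of all genes). Scaling by total counts in place of TMM put the median log2 change of all genes at 0.51 in Dcp2 degron cells and at 0.12 in Ccr4/Pop2 degron cells against wild-type cells. Relative to that median, NMD4 stood at 0.92 in Dcp2 degron cells and SKI3 at -0.58, while EBS1 stood at -1.03 and SKI8 at 0.49 in Ccr4/Pop2 degron cells. Taken without that median, the total-count change of SKI3 in Dcp2 degron cells was -0.067.

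The second readout is the median poly(A) tail length per gene in nucleotides (nt). Among the 3949 genes with 20 or more reads in each library, the median gene had 50.6 and 51.6 nt in Ccr4/Pop2 degron cells, 31.4 and 38.8 nt in Dcp2 degron cells, and 38.4 and 42.9 nt in wild-type cells. NMD2, with a lowest count of 19, and SKI2, with 17, fell short of that minimum. The other 6 members were tested, and these 2 are described.

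**Figure D3:**
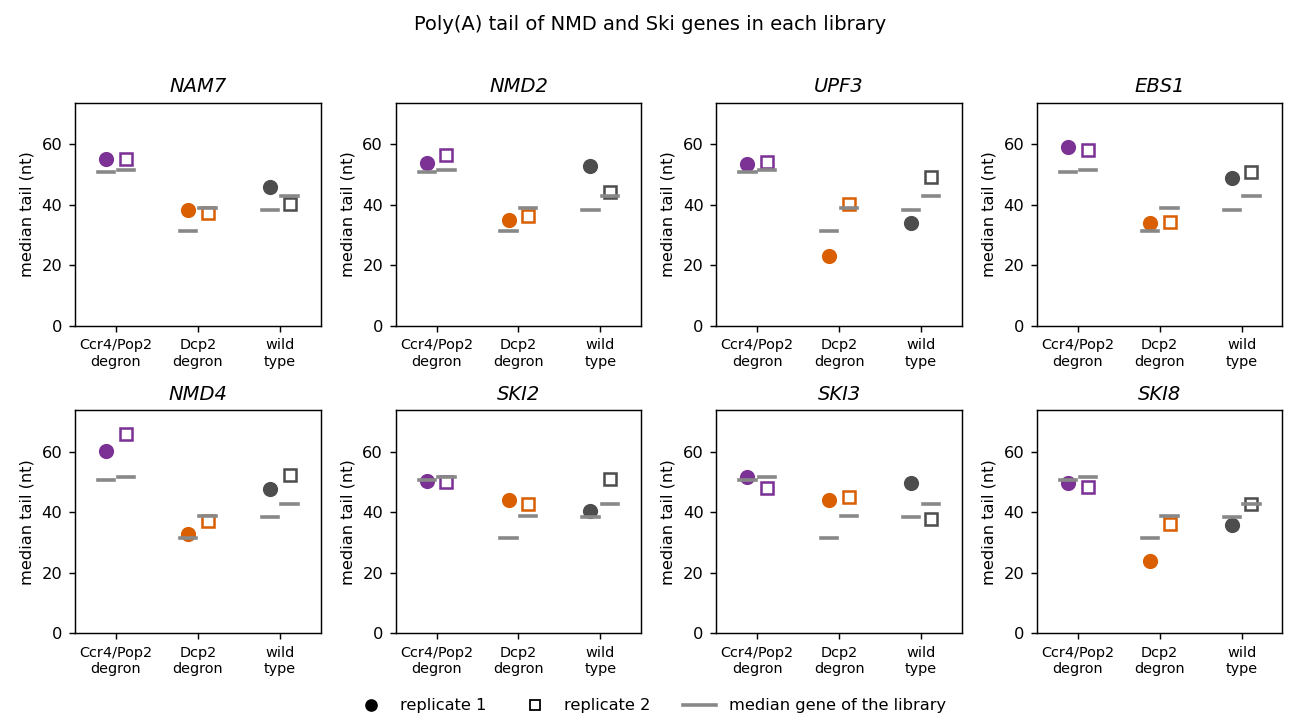
Median poly(A) tail length in nt (linear axis from 0) of the 8 genes in each library, with filled circles for replicate 1, open squares for replicate 2 and a grey bar at the median gene of that library. In Dcp2 degron cells EBS1 and NMD4, at 32.9 to 37.1 nt, sit above the grey bar in replicate 1 and below it in replicate 2. There SKI2 and SKI3, at 42.6 to 45.0 nt, sit above the bar in each replicate.

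NMD4 tails measured 60.3 and 65.7 nt in Ccr4/Pop2 degron cells, 32.9 and 37.1 nt in Dcp2 degron cells, and 47.7 and 52.3 nt in wild-type cells. EBS1 tails measured 59.2 and 58.1 nt in Ccr4/Pop2 degron cells, 33.8 and 34.3 nt in Dcp2 degron cells, and 48.9 and 50.7 nt in wild-type cells. For both genes the 3 groups were apart, longest in Ccr4/Pop2 degron cells and shortest in Dcp2 degron cells. Averaged over both libraries, NMD4 stood at the 96.4th percentile of tail length in Ccr4/Pop2 degron cells, the 50.5th in Dcp2 degron cells and the 88.4th in wild-type cells. EBS1 stood at the 89.5th percentile in Ccr4/Pop2 degron cells, the 45.9th in Dcp2 degron cells and the 87.7th in wild-type cells. The Dcp2 degron replicates lay apart, at 60.2 and 40.7 for NMD4 and at 66.5 and 25.3 for EBS1. The difference between the Dcp2 degron and the wild type was -15.0 nt for NMD4 and -15.7 nt for EBS1, where log2 changes of -0.52 (SE 0.131) and -0.55 (SE 0.113) had limma adjusted p of 0.152 and 0.149. Ccr4/Pop2 degron cells differed from wild-type cells by 13.0 and 8.84 nt (log2 changes of 0.33 and 0.24, limma adjusted p 0.171 and 0.185). Between the degrons they were 28.04 and 24.6 nt, with a limma adjusted p of 0.0131 for each.

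NAM7 tails measured 55.2 and 55.1 nt in Ccr4/Pop2 degron cells, 38.3 and 37.4 nt in Dcp2 degron cells, and 45.8 and 40.1 nt in wild-type cells. NMD2 tails measured 53.8 and 56.3 nt in Ccr4/Pop2 degron cells, 35.0 and 36.3 nt in Dcp2 degron cells, and 52.7 and 44.2 nt in wild-type cells. Both genes kept the order Ccr4/Pop2 degron, wild type, Dcp2 degron with no overlap. UPF3 tails measured 53.5 and 54.2 nt in Ccr4/Pop2 degron cells, 23.1 and 40.3 nt in Dcp2 degron cells, and 34.0 and 49.0 nt in wild-type cells. UPF3 replicates lay far apart in Dcp2 degron cells and the wild type, with SD of 12.1 and 10.6 nt around means of 31.7 and 41.5 nt. The log2 tail changes of NAM7 and UPF3 in Dcp2 degron cells were -0.18 (SE 0.124) and -0.42 (SE 0.283), with limma adjusted p of 0.396 and 0.39. The same genes had 0.36 and 0.40 in Ccr4/Pop2 degron cells against wild-type cells, with limma adjusted p of 0.165 and 0.281. Between the degrons they had 0.54 and 0.82, with limma adjusted p of 0.0157 and 0.0384.

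Over the 6 libraries, SKI3 tails ran from 37.9 to 51.5 nt and SKI2 tails from 40.2 to 50.9 nt. SKI3 tails measured 51.5 and 48.0 nt in Ccr4/Pop2 degron cells, 44.0 and 45.0 nt in Dcp2 degron cells, and 49.6 and 37.9 nt in wild-type cells. SKI2 tails measured 50.2 and 50 nt in Ccr4/Pop2 degron cells, 44.1 and 42.6 nt in Dcp2 degron cells, and 40.2 and 50.9 nt in wild-type cells. In both genes the wild-type replicates straddled the Dcp2 degron values. The SKI3 difference in Dcp2 degron cells was 0.81 nt, a log2 change of 0.039 (SE 0.156, limma adjusted p 0.885), and the SKI2 difference was -2.19 nt. Between the degrons SKI3 differed by 5.21 nt, a log2 change of 0.16 (SE 0.156, limma adjusted p 0.355), and SKI2 by 6.77 nt. Averaged over both libraries, SKI3 stood at the 41.2nd percentile of tail length in Ccr4/Pop2 degron cells, the 87.1st in Dcp2 degron cells and the 56.2nd in wild-type cells. SKI2 stood at the 43.7th, the 82.5th and the 73.5th in that order. The replicates lay apart: SKI3 ranked at 90.5 and 22.0 in wild-type cells and at 94.0 and 80.2 in Dcp2 degron cells. SKI2 ranked at 60.1 and 86.8 in wild-type cells and at 94.0 and 70.9 in Dcp2 degron cells. SKI8 tails measured 49.7 and 48.2 nt in Ccr4/Pop2 degron cells, 23.9 and 36.2 nt in Dcp2 degron cells, and 35.9 and 42.6 nt in wild-type cells, and between the degrons the log2 change was 0.74 (SE 0.208, limma adjusted p 0.0237).

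Counted over members, tails in both Dcp2 degron libraries were shorter than in both wild-type libraries for 4 of 8 members (3 of the 6 tested), where this held for 44.9% of the 3949 genes, and longer for 0 (1.67% of genes). The 4 were NAM7, NMD2, EBS1 and NMD4. In Ccr4/Pop2 degron cells 6 of 8 were longer (90% of genes), with SKI2 and SKI3 overlapping the wild type. Between the degrons all 8 were longer in Ccr4/Pop2 degron cells (95.7% of genes). limma called 0 of the 6 tested members in each comparison with the wild type, with 2 in each at an unadjusted p under 0.05 (20.1% of genes in Dcp2 degron cells and 28.8% in Ccr4/Pop2 degron cells). Between the degrons it called 5 of 6 longer, the exception being SKI3, where 69.6% of genes were called longer. Without Ccr4/Pop2 degron replicate 1 or replicate 2 that count was 0, as it was for all 3949 genes, although the changes of the 5 members stayed between 0.54 and 0.91. With each library centred on its median the count was also 0, and there the changes of the 5 were between -0.0056 for NAM7 and 0.30 for NMD4. Without Dcp2 degron replicate 1 the call of UPF3 was lost (0.42). Without Dcp2 degron replicate 2, limma called the tails of UPF3, EBS1, NMD4 and SKI8 shorter in Dcp2 degron cells than in wild-type cells, at -0.82, -0.56, -0.60 and -0.71, where 52.3% of the 3949 genes were called shorter. Without Dcp2 degron replicate 1, and likewise without replicate 2, limma called NAM7, EBS1, NMD4 and SKI8 tails longer in Ccr4/Pop2 degron cells than in wild-type cells, at the same log2 changes of 0.36, 0.24, 0.33 and 0.32, where 59.1% of the genes were called longer. The median log2 tail change of the 6 tested members was -0.42, 0.33 and 0.76 in the 3 comparisons, against -0.22, 0.30 and 0.53 for all tested genes.

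**Figure D4:**
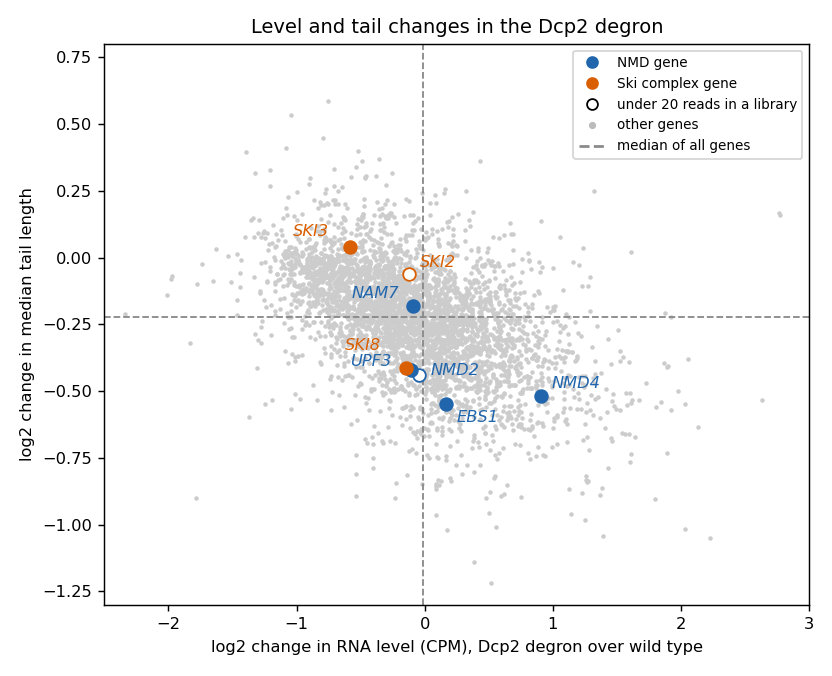
Log2 change in RNA level (horizontal) and in median tail length (vertical) of the Dcp2 degron over the wild type for NMD genes (blue), Ski complex genes (orange) and the other genes with 20 or more reads in each library (grey), with dashed lines at the medians. Open circles mark NMD2 and SKI2, and 6 grey genes lie outside the axes. NMD4 lies at 0.90 and -0.52, and SKI3 at -0.58 and 0.039.

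Level and tail changes in Dcp2 degron cells were related across the 3949 genes with a Spearman coefficient of -0.513, a description across genes that share libraries. In mean change, NMD4 and SKI3 lie toward the opposite ends of this cloud. NMD4 ranked at the 90.8th percentile of level change among all 4909 genes and the 8.96th of tail change among the 3949. SKI3 ranked at the 16.0th and the 93.4th. The tail rank of SKI3 is that of a log2 change of 0.039 (SE 0.156), and its same-numbered libraries differed by -5.54 and 7.16 nt. Both measures of a gene come from the same reads.

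The pathways around these genes were looked at as lists. Of 10 RNAs known as NMD substrates, 9 have a row. Of these, edgeR with the replicate block called 4 higher (17.6% of all genes) and 0 lower (19.7% of all genes) in Dcp2 degron cells against wild-type cells. It called 0 higher (14.2% of all genes) and 2 lower (12.8% of all genes) in Ccr4/Pop2 degron cells, and between the degrons 0 higher (26.3% of all genes) and 6 lower (20.8% of all genes). Their median log2 change was 0.37 in Dcp2 degron cells, -0.33 in Ccr4/Pop2 degron cells and -1.14 between the degrons, beside the medians of all genes given above. TEN1, STN1 and EST3 act at telomeres. STN1 averaged 48.4 ± 3.0 CPM in Dcp2 degron cells and 17.2 ± 5.34 CPM in wild-type cells (SD, n = 2 each), with a blocked log2 change of 1.53 (edgeR adjusted p 6.71e-05). TEN1 averaged 104 ± 78.5 CPM in Dcp2 degron cells and 17.2 ± 9.80 CPM in wild-type cells, while EST3 averaged 167 ± 91.7 CPM in Dcp2 degron cells and 55.8 ± 44.0 CPM in wild-type cells. For TEN1 and EST3 the SD between replicates was large beside the mean. CPA1, an arginine synthesis gene whose upstream reading frame exposes it to NMD, averaged 49.8 ± 3.53 CPM in Ccr4/Pop2 degron cells and 121 ± 4.92 CPM in wild-type cells, a blocked log2 change of -1.26 (edgeR adjusted p 1.09e-05). The magnesium transporter gene ALR1 changed by -0.73 there (edgeR adjusted p 0.00767 with the block).

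Of the 10 genes of the exosome core, the complex that Ski feeds, 0 were called higher and 3 lower in Dcp2 degron cells with the block (19.7% of all genes lower). In Ccr4/Pop2 degron cells 0 were called in either direction, and between the degrons 2 were called higher (26.3% of all genes). The catalytic subunit gene DIS3 averaged 43.2 ± 13.2 CPM in Dcp2 degron cells and 76.2 ± 18.9 CPM in wild-type cells (SD, n = 2 each), with a blocked log2 change of -0.83 (edgeR adjusted p 0.00182). Of 8 nuclear exosome cofactor and TRAMP genes, 5 were called lower in Dcp2 degron cells (19.7% of all genes) and 1 in Ccr4/Pop2 degron cells (12.8% of all genes). Between the degrons 3 of these 8 genes were called higher (26.3% of all genes). In the same list, the helicase gene MTR4 averaged 64.0 ± 13.4 CPM in Dcp2 degron cells and 109 ± 30.9 CPM in wild-type cells. Both release factor genes were called lower in Dcp2 degron cells (19.7% of all genes). SUP45, which encodes the factor that recognises stop codons, averaged 230.2 ± 13.2 CPM in Dcp2 degron cells and 401 ± 2.70 CPM in wild-type cells. Of the 2 release factor genes, 1 was called higher in Ccr4/Pop2 degron cells (14.2% of all genes) and 2 between the degrons (26.3% of all genes). Of 11 genes of ribosome rescue and quality control 9 have a row, and 1 was called lower in Dcp2 degron cells (19.7% of all genes) and 2 higher in Ccr4/Pop2 degron cells (14.2% of all genes). Between the degrons 4 of the 9 were called higher (26.3% of all genes). DOM34, whose product splits stalled ribosomes, averaged 110 ± 5.01 CPM in Ccr4/Pop2 degron cells and 80.2 ± 7.23 CPM in wild-type cells (edgeR adjusted p 0.0353 with the block). HBS1, its partner gene and the paralog of SKI7, had 52.7 and 42.5 CPM in Ccr4/Pop2 degron cells, 41.4 and 37.4 in Dcp2 degron cells, and 70.0 and 41.9 in wild-type cells. The median log2 changes in Dcp2 degron cells were -0.27 for the exosome core, -0.55 for the nuclear cofactors, -0.72 for the release factors and -0.22 for ribosome rescue. Of the 38 listed genes of all 5 lists, edgeR without the block called 0 in each comparison (0%, 0.0815% and 0% of all genes). In Dcp2 degron cells 4 had an unadjusted p under 0.05 (11.8% of all genes). It was 1 in Ccr4/Pop2 degron cells (7.99% of all genes) and 10 between the degrons (16.4% of all genes). DESeq2 without the block called 1, 0 and 2, and its share of all genes called was not taken.

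The 8 members did not share a single profile over the 6 libraries. The Pearson coefficient of each gene's log2 CPM with the mean profile of the members ran from -0.475 for SKI3 to 0.763 for NAM7, and UPF3 and SKI8 were also negative. Among 4329 other genes with a mean of at least 50 reads, those most like the mean profile were BRE2, CDC50, YGR237C, NAB6 and SPG1, with coefficients of 0.989, 0.979, 0.973, 0.9703 and 0.968 over 6 libraries. With libraries that share a replicate shift and so many candidates, this is a ranking only.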

How the data were processed

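Direct RNA libraries (kit SQK-RNA002) were made from RNA extracted with hot phenol, per the labels' protocols, and minimap2 and SAMtools 1.9 are named in the submitters' processing notes, as is the build sacCer3. The basecaller, the assignment of reads to genes, the use of strand and the filter behind the 4909 genes are not given in the sources used here. Per the file headers, the deposited table holds raw counts of reads by gene and library, beside a median signal, taken as the poly(A) tail length in nt because nanopolish, which measures tails, stands in the table's name. The authors also deposited group means of both and a log2 of the mean count over its median, which were not used. Columns were matched to samples by strain name, unnumbered columns being replicate 1 by elimination, and 0 columns of per-sample values were left unmatched.

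RNA levels were tested with edgeR 4.0.16 (R 4.3.3; TMM, filterByExpr, which removed 0 genes, quasi-likelihood test) on all 6 libraries and 4909 genes without a block, and tail lengths with limma 3.58.1 on log2 values of the 3949 genes with 20 or more reads in each library. P-values were adjusted over all genes tested (Benjamini-Hochberg) and called under 0.05. Log2 CPM carried a prior count of 1. The standard error of a level change is its size over the square root of the F statistic. The replicate numbers come from the sample titles. Deviations from the group means correlated between same-numbered libraries at 0.794, 0.823 and 0.804 for log2 CPM, so the numbers were taken to pair the libraries for RNA level. For log2 tail length the coefficients were 0.0548, 0.148 and 0.257, so the numbers were not taken to pair tails. With 2 libraries a group the deviations of a gene mirror each other, so only the sign of such a coefficient depends on the numbering. The pairing was thus read from the same data and is not given by the labels. The fit without the block leaves 3 residual degrees of freedom and the blocked fit 2. DESeq2 1.42.0 and the other settings in the closing section were alternatives. Scripts were also run on simulated data, with tail noise set below the spread of these libraries, so that run does not measure how the tests perform here. Members and lists were chosen with earlier results of these data known. All 8 listed members are named, and from each list at most 3 genes with the smallest blocked p whose groups did not overlap. Total counts of 1067250 to 8450296 set the precision.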

Additional observations from a re-analysis of the deposited data

How the results depend on the processing

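Without the replicate block edgeR called 0 members for RNA level in each of the 3 comparisons, also with RLE factors, total-count scaling, no filter, a minimum of 20 reads, only the 2 groups compared, counts of Ccr4/Pop2 degron replicate 1 divided by 4, each library left out, or DESeq2. The replicate block raised the counts to 2 in the Dcp2 degron, 3 in the Ccr4/Pop2 degron and 5 between the degrons, and with total-count scaling to 3, 3 and 5. Total-count scaling changed which members were called: in the Dcp2 degron SKI3 was lost and EBS1 and NAM7 were gained, and between the degrons SKI2 and SKI8 were lost and NAM7 and NMD2 gained. Except under total-count scaling, shares of all genes called were not taken for alternatives to the blocked fit. These alternatives were chosen after seeing the data. There DESeq2 gave 1 member in each comparison with the wild type, and a minimum of 20 reads (which drops NMD2 and SKI2) gave 1 in the Dcp2 degron. Only the 2 groups compared gave 5 in the Ccr4/Pop2 degron. Without a share of all genes beside them, these counts cannot be read as high or low. Leaving out single libraries changed which members were called, at the log2 changes given above. Tail calls between the degrons numbered 5 (69.6% of the tested genes were called longer), with 2 at a minimum of 50 reads (which leaves 2 members) and 0 with centred libraries. For Ccr4/Pop2 degron cells against wild-type cells there were 4 with only the 2 groups compared, where the share of all genes was not taken. Leaving out single libraries also changed tail calls, at the log2 changes given above. The replicate block, for which tail lengths gave no pairing, changed no tail call.

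Directions turned for small changes. In the Dcp2 degron total-count scaling turned NAM7 to 0.45, NMD2 to 0.56, UPF3 to 0.41, SKI2 to 0.39 and SKI8 to 0.39 (0.43, 0.49, 0.41, 0.46 and 0.39 with the block), and between the degrons UPF3 to -0.16 (-0.18 with the block). A minimum of 20 reads turned NAM7 to 0.0011 (0.00067 with the block). Leaving out each library gave ranges that crossed 0. Without the block these were -0.21 to 0.020 for NAM7, -0.41 to 0.27 for NMD2, -0.27 to 0.079 for UPF3 and -0.47 to 0.38 for SKI2 in the Dcp2 degron, and -0.046 to 0.30 for UPF3 and -0.0079 to 1.19 for SKI2 in the Ccr4/Pop2 degron. Under the blocked fit, single libraries left out turned NAM7 to 0.015, NMD2 to 0.38 and 0.32, UPF3 to 0.040 and SKI2 to 0.23 in the Dcp2 degron, and UPF3 to -0.019 and -0.021 in the Ccr4/Pop2 degron. The SKI3 tail change in the Dcp2 degron ran from -0.15 to 0.23. Tails of centred libraries turned to 0.037 for NAM7 in the Dcp2 degron, -0.097, -0.13 and -0.010 for EBS1, SKI3 and SKI8 in the Ccr4/Pop2 degron, and -0.0056 and -0.39 for NAM7 and SKI3 between the degrons. The cause was not tested. With 1 library left out of a group, the lone library was assumed to vary like those of the other groups. NMD2 and SKI2 had as few as 19 and 17 reads in a library, so counting error limits their changes most.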
